A study of Mus musculus with 9 samples.

Results

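Collagen chain genes were followed in pneumospheres, floating spheres grown from dissociated lungs of E11.5 C57/B6 mouse embryos. The genes were all those of the count table whose RefSeq symbol has the form of a collagen chain, Col followed by a type number, a and a chain number. This rule found 44 genes among 27179 gene IDs, of which 25275 carried a RefSeq name. Levels played no part in the choice. Per the labels, cells were freed with trypsin, kept for 1 h on ordinary culture plastic so that mesenchymal cells could attach, and taken from the supernatant into low-attachment wells at 5% oxygen. All cultures received basic FGF, EGF and heparin, and were split on day 3 and on day 7. Poly(A) RNA was sequenced on day 3, day 7 and day 10 of culture, with 3 libraries a day from the same strain and with no treatment. Since no label tells whether replicates are separate litters or cultures, p-values measure only the spread between these samples, which may be technical.

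Collagens are matrix proteins built from 3 chains wound into a triple helix, and most types have chains from more than 1 gene. Fibrillar collagens form the banded fibrils of connective tissue, type IV chains form the network of basement membranes, and type VI chains form beaded filaments around cells. FACIT collagens (fibril-associated collagens with interrupted triple helices) attach to fibril surfaces, multiplexins lie in basement membrane zones and carry sugar chains, and transmembrane collagens stay anchored in the plasma membrane. In the lung, basement membranes separate epithelium and endothelium from the mesenchyme, and mesenchymal cells are a main source of fibrillar and type VI collagen. The 44 genes comprised 11 fibrillar, 6 type IV, 9 FACIT, 6 type VI, 1 type VII, 3 short-chain, 2 multiplexin and 4 transmembrane chains, with Col26a1 and Col28a1 as 2 others.

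Libraries held 20716878 to 30466712 counts, so that a count of 0 allows up to 3 counts, or 0.0985 to 0.145 CPM, by counting error alone. CPM are counts scaled to library size with TMM factors. A single gene ID without a name took 6.79% of the counts of day 3 replicate 2, against 0.169% to 0.515% elsewhere. In day 10 replicate 3, 8 cell division genes summed to 434 CPM, against 1012 and 871 CPM in the other libraries of that day. The labels describe the starting cells as enriched for epithelium, but 10 lung epithelium markers summed to 1.13 to 1.94 CPM on day 3, 0.039 to 0.535 CPM on day 7 and 0.106 to 0.32 CPM on day 10. Nkx2-1, Foxa1 and Cldn18 had no count in any library. In contrast, 10 lung mesenchyme markers, among them Pdgfra and Pdgfrb, summed to 1266 to 1397 CPM on day 3, 2301 to 2485 CPM on day 7 and 3012 to 3408 CPM on day 10. Of these, 5 rose by day 10 and 3 fell (Tbx4, Tbx5 and Tcf21), beside 29.5% of all genes higher and 27.2% lower. Much of the sum came from Pdgfrb, with means of 637 CPM on day 3 and 1908 CPM on day 10. Tbx5 averaged 48.7 CPM on day 3 and 6.96 CPM on day 10, so the sum does not stand for every marker. The part of mesenchymal cells in the collagen levels was not tested. In such bulk samples, a change in the number of cells of a type and a change in RNA per cell cannot be told apart.

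The collagen chain genes took up 2.58 ± 0.108% on day 3, 5.95 ± 0.183% on day 7 and 8.53 ± 0.0847% on day 10 (mean ± SD, n = 3) of all counts. In each library of day 10 the share was above that in each library of day 7, and each of these was above day 3. The number of chains with a mean of at least 1000 CPM was 7 on day 3, 11 on day 7 and 12 on day 10. At the other end, 6 of the 44 stayed under 1 CPM on every day. Col6a4, Col10a1 and Col19a1 were too low to be tested, with a mean over all libraries of at most 0.295 CPM. The remaining 41 were tested in a fit over 14940 genes.

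**Figure D1:**
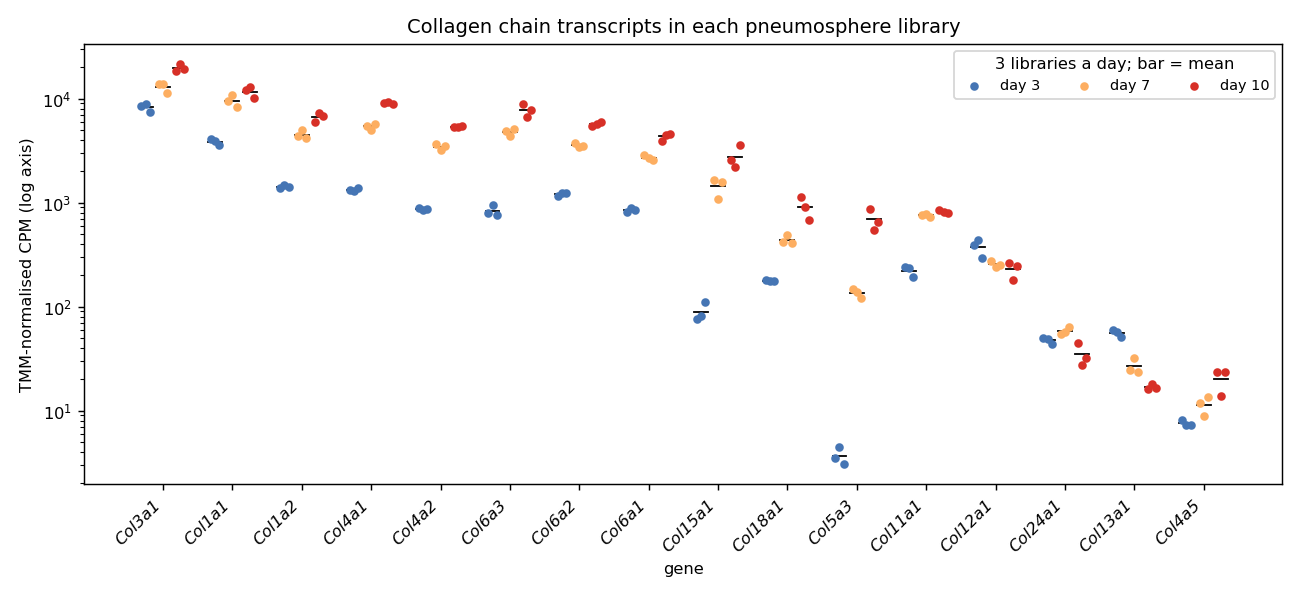
TMM-normalised CPM (log axis) of 16 collagen chain genes in every library of day 3, day 7 and day 10; points are libraries and bars are means of 3. Col5a3 lay between 548 and 879 CPM on day 10 and between 3.04 and 4.50 CPM on day 3, while Col13a1 was lower on each later day.

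Between day 10 and day 3, the question being which transcripts changed over the whole culture, 26 of the 41 tested chains rose, 4 fell and 11 were not called at an adjusted p under 0.05. Over all genes tested, 29.5% were called higher and 27.2% lower on day 10, 56.7% in either direction. The median log2 change of the 41 chains was 1.25, while that of all genes tested was 0.00. By class, 8 of 11 fibrillar, 5 of 6 type IV, 3 of 5 tested type VI and 2 of 2 multiplexin chains rose, and the class medians were 1.24, 2.58, 2.24 and 3.65. Among 8 tested FACIT chains, 3 rose and 2 fell, with a median of -0.55. Of the 4 transmembrane chains, 1 rose and 1 fell. Calls among the tested FACIT and transmembrane chains went in both directions, in numbers not far from the shares of all genes. Type IV, type VI and multiplexin chains had no member called lower with all libraries and no replicate term. With 6, 5 and 2 tested chains, this is little to go by beside 27.2% of all genes. These counts describe the classes, and no class was tested against another.

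**Figure D2:**
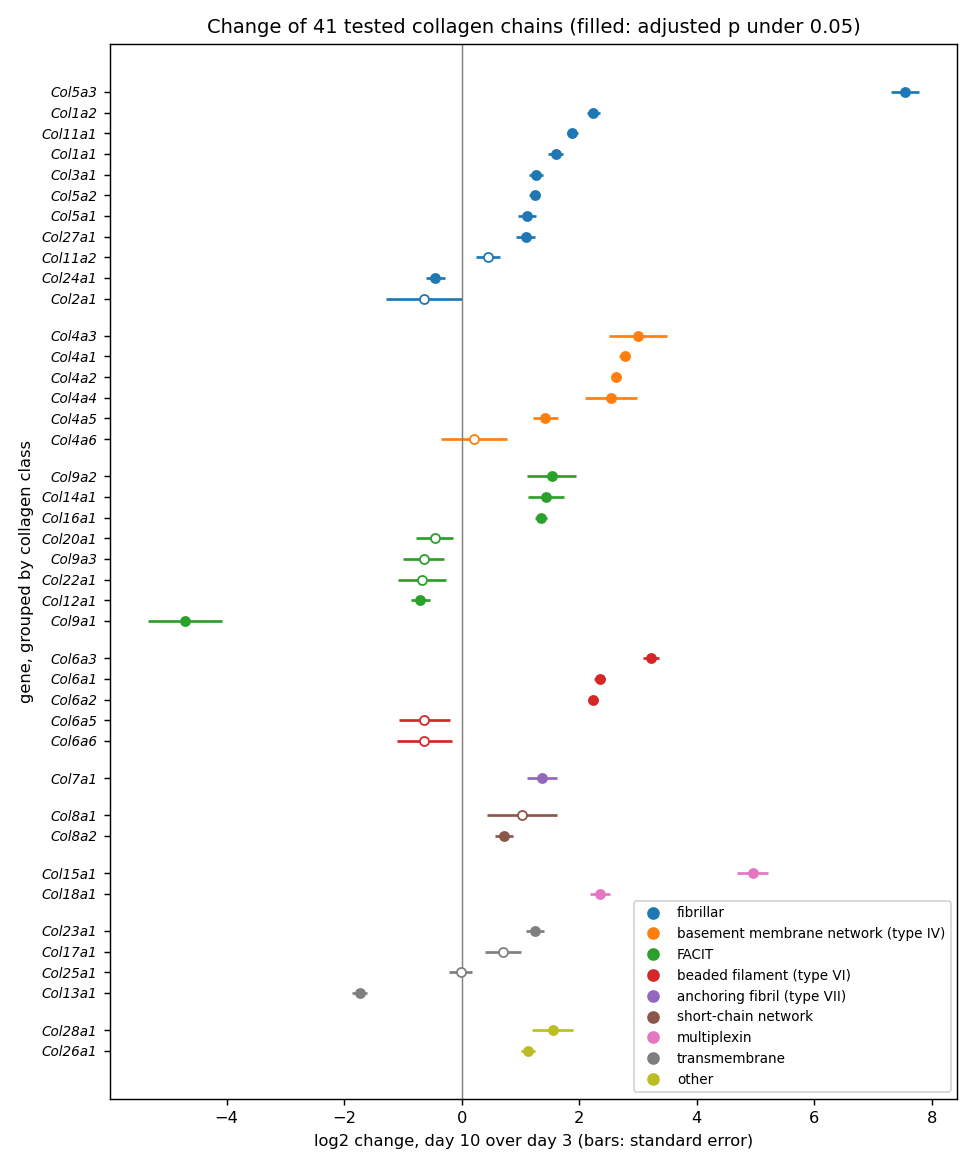
Log2 change of day 10 over day 3 for the 41 tested collagen chain genes, grouped by class; bars are standard errors, and filled points have an adjusted p under 0.05. Filled points to the left of 0 are Col24a1, Col9a1, Col12a1 and Col13a1.

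Col3a1 and Col1a1 were the most abundant collagen chains per kb of exon on all 3 days. Col3a1 (chromosome 1, 45311538 to 45349706, mouse build GRCm38), the chain of type III collagen of soft tissue, had 8475, 8824 and 7435 CPM on day 3, 13731, 13917 and 11449.7 CPM on day 7 and 18593, 21558 and 19218 CPM on day 10. No library of a later day overlapped with those of an earlier one. On day 10 it was 2.40-fold above day 3 (log2 change 1.26, standard error 0.116, adjusted p = 1.40e-05). Col1a1 (chromosome 11, 94936224 to 94953042), the alpha 1 chain of type I collagen, had 4059.9, 3949 and 3566 CPM on day 3, 9445, 10739.6 and 8311 CPM on day 7 and 12062, 12978 and 10066 CPM on day 10. Its day 3 libraries stood apart from the rest, while day 10 and day 7 overlapped. It rose 3.03-fold by day 10 (log2 change 1.60, standard error 0.13, adjusted p = 6.55e-06), but its change between day 10 and day 7 was not called (log2 change 0.30, adjusted p = 0.172). Col1a2 (chromosome 6, 4505618 to 4541543), the alpha 2 chain of the same type, had 1375, 1482 and 1406 CPM on day 3, 4386, 4971 and 4155 CPM on day 7 and 6003, 7292 and 6809 CPM on day 10. Its 3 days did not overlap, and it rose 4.72-fold by day 10 (log2 change 2.24, standard error 0.108, adjusted p = 3.05e-07).

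Among the chains of types V and XI, which co-assemble with the major fibrils and limit their width, Col5a3 changed by the most of all 41 tested chains. Col5a3 had 3.52, 4.50 and 3.04 CPM in the 3 libraries of day 3, 148, 139 and 122 CPM in those of day 7 and 879, 548 and 649.5 CPM in those of day 10. Each day lay far above the one before, without overlap. On day 10 it was 187-fold above day 3 (log2 change 7.55, standard error 0.237, adjusted p = 7.57e-08), the step to day 7 being 36.9-fold and that beyond it 5.07-fold. This chain is the alpha 3 chain of type V collagen. Its partner chains began far higher and rose less. Col5a1 averaged 2703 ± 139 CPM on day 3, 4383 ± 509 CPM on day 7 and 5836 ± 1354 CPM on day 10, and rose by 1.11 on the log2 scale (adjusted p = 2.10e-04). Col5a2 averaged 1167 ± 90.4 CPM on day 3, 2108 ± 140.3 CPM on day 7 and 2760.3 ± 70.8 CPM on day 10 (log2 change 1.24, adjusted p = 3.29e-06). Per kb, the mean ratio of Col5a3 to Col5a1 was 0.00189 on day 3, 0.0433 on day 7 and 0.168 on day 10, so Col5a3 remained a minor chain of its type.

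The RefSeq promoter window of Col5a3 (GRCm38.p6, chr9:20815018-20815317, minus strand, 250 bases before the start site and 50 after it) is shown because its gene had the largest change of the tested chains. The capitals mark the letters CCAAT, 122 bases before the start.

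Col5a3: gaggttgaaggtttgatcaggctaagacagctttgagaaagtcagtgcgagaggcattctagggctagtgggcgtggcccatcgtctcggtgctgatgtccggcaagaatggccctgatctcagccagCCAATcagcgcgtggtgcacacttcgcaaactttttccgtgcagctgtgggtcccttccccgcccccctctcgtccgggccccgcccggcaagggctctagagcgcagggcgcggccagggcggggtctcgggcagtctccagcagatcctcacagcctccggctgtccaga

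CCAAT, read on either strand as CCAAT or ATTGG, occurred in 13 of 38 collagen windows, or 34.2%, and in 37.4% of 32851 windows of the same length over all genes. The GC box GGGCGG or CCGCCC was in 23 of 38 collagen windows, or 60.5%, and in 35.7% of all windows. TATAAA or TTTATA was in 13.2% of collagen windows and in 13.6% of all. These are matches of letters, and 35 of the 44 genes had a window.

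Col11a1, the alpha 1 chain of type XI collagen, which is abundant in cartilage but also made elsewhere, had 238, 236 and 193 CPM on day 3, 764, 783 and 732 CPM on day 7 and 849, 820.1 and 790.5 CPM on day 10. It rose by 1.77 on the log2 scale by day 7 (adjusted p = 1.31e-06), and the further change to day 10 was 0.11 (adjusted p = 0.505). Col11a2, its partner, averaged 6.65 ± 1.15 CPM on day 3, 10.4 ± 1.61 CPM on day 7 and 9.09 ± 1.90 CPM on day 10, and was called higher on day 7 than on day 3, in a call that ended under 5 of 18 alternatives, among them without day 3 replicate 2 or 3 and without day 7 replicate 1 or 3 (highest adjusted p 0.0947). Day 10 against day 3 was not called (adjusted p = 0.0771), but was with a replicate term or without day 10 replicate 2 (lowest adjusted p 0.0199). The cartilage chain Col2a1 was at 0.626, 0.468 and 0.425 CPM on days 3, 7 and 10, and was not called between day 10 and day 3 (adjusted p = 0.424). It was called lower without day 10 replicate 1 (adjusted p = 0.0412). Cartilage markers (10 genes) summed to 20.9 to 22.4 CPM on day 3, 28.0 to 35.3 CPM on day 7 and 24.1 to 41.3 CPM on day 10, most of it from Hapln1 and Sox5, with Snorc at 0 and 14 counts of Acan in all 9 libraries. The lowest and the highest sums of day 10 lay on either side of the range of day 7, and the part of cartilage-like cells in these values was not tested. Col27a1 averaged 51.8 ± 6.88 CPM on day 3, 81.4 ± 0.75 CPM on day 7 and 110.4 ± 27.7 CPM on day 10, and rose by 1.09 (adjusted p = 3.96e-04).

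Col24a1, a fibrillar chain known from bone, went the other way late in culture. Col24a1 had 49.5, 49.1 and 43.4 CPM in the 3 libraries of day 3, 54.0, 57.2 and 63.7 CPM in those of day 7 and 44.9, 27.3 and 31.9 CPM in those of day 10. Day 10 lay below day 7 without overlap (log2 change -0.75, standard error 0.16, adjusted p = 0.0221), but overlapped with day 3 (log2 change -0.45, standard error 0.16, adjusted p = 0.0347). The call against day 3 ended in 6 of 18 alternatives, among them without day 3 replicate 1 or 2 and without day 10 replicate 2 or 3 (highest adjusted p 0.185). The call against day 7 ended in 4, among them without day 7 replicate 2 or 3 (highest 0.0778). Bone markers (7 genes) summed to 47.2 to 72.8 CPM on day 3, 111 to 149 CPM on day 7 and 83.3 to 138 CPM on day 10, with Ibsp at 0. Of 5 tested members, 4 were higher on day 10 than on day 3, beside 29.5% of all genes. The other, Phex, averaged 51.6 CPM on day 3 and 33.3 CPM on day 10, and edgeR did not call it (adjusted p = 0.102). DESeq2 called 1 bone marker lower. Tendon markers (5 genes) summed to 234 to 291 CPM on day 3, 699.6 to 1324 CPM on day 7 and 406 to 982 CPM on day 10. Tnmd and Kera were higher and Scx and Mkx lower on day 10 than on day 3, beside 29.5% and 27.2% of all genes. Thbs4, at means of 99.4, 373.5 and 88.8 CPM on days 3, 7 and 10, was not called (adjusted p = 0.717). The part of cells with bone or tendon markers in the levels of the fibrillar chains was not tested.

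All type IV chains except Col4a6 rose by day 10. Col4a1 (chromosome 8, 11198423 to 11312889) and Col4a2 (chromosome 8, 11312805 to 11449287) encode the chains that join as the common network of basement membranes. Col4a1 had 1318, 1305 and 1384 CPM in the 3 libraries of day 3, 5474, 4973 and 5765 CPM in those of day 7 and 9158, 9255 and 8968 CPM in those of day 10. Col4a2 had 889, 858 and 873 CPM in the 3 libraries of day 3, 3651, 3226 and 3489.8 CPM in those of day 7 and 5389, 5347 and 5409.8 CPM in those of day 10. In both genes the 3 days did not overlap, and the day 10 libraries averaged 9127 ± 146 CPM for Col4a1 and 5382 ± 32.2 CPM for Col4a2 (SD, n = 3). On day 10, Col4a1 was 6.83-fold above day 3 (log2 change 2.77, standard error 0.0914, adjusted p = 7.28e-08). Col4a2 was 6.16-fold above day 3 (log2 change 2.62, standard error 0.0843, adjusted p = 6.61e-08). The 2 genes thus moved by similar factors in each step: Col4a1 by 4.05-fold between day 7 and day 3 and 1.69-fold between day 10 and day 7, and Col4a2 by 3.96-fold and 1.56-fold.

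Col4a1 and Col4a2 lie head to head at a shared promoter region, and their exons overlap at the start. Their start sites in the RefSeq table are 21 bases apart on opposite strands, and their windows share 78 bases (chr8:11312777-11313076, minus strand, for Col4a1, and chr8:11312555-11312854, plus strand, for Col4a2, GRCm38.p6). Both windows are shown because these genes moved together. The capitals mark CCAAT or ATTGG, 145 bases before the start of Col4a1 and 32 bases before that of Col4a2. These are separate sites, not a shared one.

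Col4a1: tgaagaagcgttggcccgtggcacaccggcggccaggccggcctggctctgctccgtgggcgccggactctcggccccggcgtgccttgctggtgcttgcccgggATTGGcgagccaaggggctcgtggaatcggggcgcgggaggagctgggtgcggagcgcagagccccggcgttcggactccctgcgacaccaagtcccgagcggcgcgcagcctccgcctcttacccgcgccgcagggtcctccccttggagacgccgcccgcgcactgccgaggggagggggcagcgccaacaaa

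Col4a2: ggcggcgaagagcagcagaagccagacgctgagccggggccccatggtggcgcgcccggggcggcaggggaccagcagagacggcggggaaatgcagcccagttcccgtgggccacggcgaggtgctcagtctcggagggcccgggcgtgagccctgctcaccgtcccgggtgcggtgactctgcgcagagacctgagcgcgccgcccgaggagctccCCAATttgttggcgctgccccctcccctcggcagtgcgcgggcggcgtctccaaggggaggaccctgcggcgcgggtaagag

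The exons of the pair share 22 bases, 0.333% of the exon length of Col4a1 and 0.341% of that of Col4a2. It is not stated whether counting used strand, so that reads from these bases could be counted for either gene.

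The other type IV chains were scarce. Col4a5, which joins Col4a3 and Col4a4 in the specialised basement membranes of kidney and lung, had 8.05, 7.30 and 7.23 CPM on day 3, 11.8, 8.81 and 13.4 CPM on day 7 and 23.3, 13.9 and 23.4 CPM on day 10. It rose by 1.42 on the log2 scale by day 10 (adjusted p = 3.47e-04). Its call between day 10 and day 7 (log2 change 0.83, adjusted p = 0.0402) ended in 11 of 18 alternatives, 8 of them leaving out 1 library (all but day 10 replicate 2), with adjusted p up to 0.139. Col4a3 and Col4a4 averaged 1.05 and 1.00 CPM on day 10, against 0.124 and 0.166 CPM on day 3, levels of day 3 about as high as a count of 0 allows. Both were called higher (adjusted p = 5.48e-04 and 8.17e-04). Of the exon length of Col4a3, 3.2% is shared with another gene. Col4a6 stayed at 0.508, 0.356 and 0.576 CPM on days 3, 7 and 10 (day 10 against day 3, adjusted p = 0.775). Per kb, Col4a5 was 0.00225 of Col4a1 on day 10 and 0.00571 on day 3. The chains of the common network therefore made up nearly all type IV counts.

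Beside the type IV levels, 7 endothelial markers summed to 178 to 212 CPM on day 3, 245 to 338 CPM on day 7 and 126 to 138 CPM on day 10, with 3 of 7 lower and 0 higher on day 10 than on day 3 by edgeR and by DESeq2 (0 higher at an unadjusted p under 0.05), beside 27.2% of all genes lower, and Emcn the most abundant of them. Smooth muscle markers (6 genes) summed to 232 to 247 CPM on day 3, 444 to 563 CPM on day 7 and 405 to 813 CPM on day 10. Of 5 tested members, 3 were higher on day 10 than on day 3 (Acta2, Tagln and Myh11), beside 29.5% of all genes. Cnn1 and Des were not called (adjusted p = 0.405 and 0.321). Myocd was too low to be tested, at 0.427 CPM on day 3 and 0.0817 CPM on day 10. The epithelial markers, as given above, were at or near 0 on day 10. The part of endothelial and smooth muscle cells in the type IV levels was not tested.

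The 3 main type VI chains, which assemble as filaments that link cells to the fibrils, rose together. Col6a3 had 802, 946 and 758 CPM in the 3 libraries of day 3, 4898, 4374 and 5086 CPM in those of day 7 and 8978, 6734 and 7744 CPM in those of day 10. Col6a1 had 822, 886 and 841 CPM on day 3, 2846, 2697 and 2595 CPM on day 7 and 3960.3, 4471 and 4582 CPM on day 10. Col6a2, its neighbour on chromosome 10, had 1163, 1244 and 1238 CPM on day 3, 3790.0, 3413 and 3511 CPM on day 7 and 5478, 5709.6 and 6009 CPM on day 10. In each of these genes the 3 days did not overlap. Day 10 was 9.36-fold above day 3 for Col6a3 (log2 change 3.23, standard error 0.14, adjusted p = 1.52e-07), 5.10-fold for Col6a1 (adjusted p = 1.06e-07) and 4.72-fold for Col6a2 (adjusted p = 1.06e-07). The alternative chains Col6a5 and Col6a6, which can stand in for Col6a3, averaged 0.297 and 1.70 CPM on day 10, against 0.481 and 2.70 CPM on day 3, and were not called (adjusted p = 0.24 and 0.268). With a replicate term, Col6a6 was called lower (adjusted p = 0.0286).

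Both multiplexins rose. Col15a1 encodes a chain that bridges basement membranes and fibrils, and Col18a1 one whose end fragment is endostatin. Col15a1 had 76.2, 81.7 and 109.9 CPM in the 3 libraries of day 3, 1668, 1095 and 1584 CPM in those of day 7 and 2552, 2188 and 3556 CPM in those of day 10. The days did not overlap, and day 10 was 30.99-fold above day 3 (log2 change 4.95, standard error 0.262, adjusted p = 8.86e-07). Most of this lay in the first step, of 16.2-fold. The call between day 10 and day 7 (1.91-fold, adjusted p = 0.0353) ended in 9 of 18 alternatives, among them without day 3 replicate 2, without any 1 of the day 7 libraries and without day 10 replicate 3 (highest adjusted p 0.115). Col18a1 had 182, 175 and 175 CPM on day 3, 419, 486 and 411 CPM on day 7 and 1133, 912 and 679.8 CPM on day 10. Its days were also apart, and it was 5.11-fold higher on day 10 than on day 3 (log2 change 2.35, standard error 0.164, adjusted p = 2.83e-06) and 2.07-fold higher than on day 7 (adjusted p = 0.00703).

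Calls among the FACIT chains went in both directions. Col12a1, a chain of tendon and embryonic connective tissue, had 393, 438 and 294 CPM on day 3, 274, 238 and 252 CPM on day 7 and 263, 181 and 246 CPM on day 10. Every library of day 10 was below every library of day 3, and the fall was called (log2 change -0.70, standard error 0.167, adjusted p = 0.00521). Col14a1, a related chain on the surface of fibrils, went the opposite way, with 258, 235 and 366 CPM on day 3, 602, 436 and 566 CPM on day 7 and 487, 656 and 1176 CPM on day 10 (log2 change 1.43, adjusted p = 0.00307). Its range on day 10 was wide, with day 10 replicate 3 highest, and over 18 alternatives the log2 change was 0.87 to 1.68. Col16a1 averaged 212 ± 7.26 CPM on day 3, 462 ± 22.2 CPM on day 7 and 543 ± 74.6 CPM on day 10, and rose by 1.36 (adjusted p = 3.67e-06).

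The 3 chains of type IX collagen, which form 1 molecule in cartilage, did not move together. Col9a2 had 87.9, 88.4 and 78.4 CPM on day 3, 294, 148 and 159 CPM on day 7 and 116, 229 and 389 CPM on day 10. It was higher on day 10 than on day 3 (log2 change 1.53, standard error 0.412, adjusted p = 0.0116), but the call ended without day 10 replicate 3 (highest adjusted p over 18 alternatives 0.0998). Col9a1 fell to 0.198, 0.12 and 0 CPM on day 10, against 3.56, 2.80 and 1.59 CPM on day 3 (log2 change -4.71, standard error 0.626, adjusted p = 1.41e-04), levels of day 10 being near the limit set by a count of 0. The log2 change was -5.43 without day 10 replicate 1 and -4.05 without day 10 replicate 3. Col9a3 averaged 0.909 CPM on day 10 and 1.39 CPM on day 3, and was not called (adjusted p = 0.139), except that it was called lower without day 10 replicate 1 (adjusted p = 0.0211). Of its exon length, 7.68% is shared with Tcfl5. Per kb, the ratio of Col9a2 to Col9a3 ranged from 54.5 to 884 over the 9 libraries, so Col9a2 was present without comparable levels of its partners. Col20a1 and Col22a1 stayed at means of at most 3.81 CPM, and were not called between day 10 and day 3.

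Of the transmembrane chains, Col13a1, found at cell-matrix contacts and neuromuscular junctions, fell in both steps. Col13a1 had 59.9, 56.6 and 51.5 CPM in the 3 libraries of day 3, 24.5, 32.3 and 23.4 CPM in those of day 7 and 16.2, 18.0 and 16.3 CPM in those of day 10. The days did not overlap, and day 10 was at 0.301 of the day 3 level (log2 change -1.73, standard error 0.127, adjusted p = 3.33e-06). Col23a1 rose by 1.25 on the log2 scale, with 216 ± 34.3 CPM on day 10 and 90.7 ± 10.1 CPM on day 3 (adjusted p = 9.07e-05). Col25a1 averaged 202 ± 24.0 CPM on day 3, 294 ± 32.0 CPM on day 7 and 199 ± 57.6 CPM on day 10. It was not called between day 10 and day 3 (adjusted p = 0.946), and its call as higher on day 7 (adjusted p = 0.047) ended in 11 of 18 alternatives. Col17a1, a hemidesmosome chain of stratified epithelium, averaged at most 2.83 CPM on any day (day 10 against day 3, adjusted p = 0.0742). It was called higher with a replicate term, without day 7 replicate 2 or without day 10 replicate 2 (lowest adjusted p 0.0442).

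Col7a1, the anchoring fibril chain of skin, averaged 6.16 ± 0.361 CPM on day 3, 9.66 ± 1.62 CPM on day 7 and 15.97 ± 6.28 CPM on day 10, and rose by 1.37 by day 10 (adjusted p = 0.00108). Its days did not overlap, and the libraries of day 10 had 23.2, 11.6 and 13.1 CPM. Markers of basal and stratified epithelium (6 genes) summed to 228 to 253 CPM on day 3, 201 to 270.3 CPM on day 7 and 134 to 181 CPM on day 10, nearly all from Dst, with Krt14 at 0 in every library. Col8a2, a short-chain collagen of vessels and cornea, was highest on day 7, with 9.79 ± 0.848 CPM on day 3, 20.6 ± 2.61 CPM on day 7 and 16.1 ± 2.78 CPM on day 10. Day 10 and day 7 overlapped, and day 10 was higher than day 3 (log2 change 0.72, adjusted p = 0.00236). Col8a1 averaged at most 1.72 CPM on any day and was not called between day 10 and day 3 (adjusted p = 0.17). It was called higher without both day 3 replicate 2 and day 10 replicate 3 (adjusted p = 0.047). Over 18 alternatives its log2 change was 0.13 to 1.77. Col26a1 averaged 525 ± 28.8 CPM on day 3, 843 ± 60.7 CPM on day 7 and 1149 ± 195 CPM on day 10, and rose by 1.13 (adjusted p = 4.18e-05). Col28a1, known from Schwann cells of peripheral nerve, averaged 76.3 ± 7.32 CPM on day 3, 143 ± 34.4 CPM on day 7 and 223 ± 131 CPM on day 10. It rose by 1.55 (adjusted p = 0.00432), and by 0.95 without day 10 replicate 3.

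Over the 3 days together, 33 of the 41 tested chains were called, beside 53.5% of all genes. More chains were called in the first step than in the second. Between day 7 and day 3, 25 chains were called higher and 4 lower (Col9a1, Col12a1, Col13a1 and Col20a1), beside 22.8% of all genes higher and 19.0% lower (41.8% in either direction). The median log2 change was 0.70. Calls of Col4a4, Col9a2, Col11a2, Col12a1, Col14a1, Col20a1 and Col25a1 each ended without at least 1 of several single libraries, day 3 replicate 1 or 2 being among these for every one of them. The count of lower chains was 2 without day 3 replicate 2, day 7 replicate 2 or day 7 replicate 3. Over all genes, 2178 of 15174, 2554 of 15265 and 2311 of 15204 were lower in these fits. Between day 10 and day 7, 12 chains were called higher and 2 lower (Col13a1 and Col24a1), beside 4.41% of all genes higher and 4.1% lower (8.51% in either direction), with a median of 0.44. With the spread taken from these 2 days alone, 6 were called higher and 0 lower, beside 1.22% and 0.778% of all genes, with 17 and 3 chains at an unadjusted p under 0.05 by the same test. Without day 7 replicate 2, 8 chains were called higher and 1 lower, and the shares of all genes were 0.943% and 1.05%. The call ended without day 7 replicate 3 for Col3a1, without day 7 replicate 2 for Col6a3, and without day 3 replicate 1, any 1 of the day 7 libraries or day 10 replicate 2 for Col5a2 (highest adjusted p 0.0947).

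Taking both steps, 11 chains rose in each (Col1a2, Col3a1, Col4a1, Col4a2, Col5a2, Col5a3, Col6a1, Col6a2, Col6a3, Col15a1 and Col18a1), 14 rose in the first step only by the calls, and Col13a1 fell in each. The share of all genes with each of these patterns was not counted, so these numbers only describe the chains. With all libraries, edgeR called 0 of 8 tested FACIT chains between day 10 and day 7, beside 8.51% of all genes. At so low a share, 0 of 8 does not set the class apart. By edgeR, 1 was higher and 0 lower at an unadjusted p under 0.05. DESeq2 called 0 as well, but edgeR called Col16a1 higher without day 10 replicate 3 (adjusted p = 0.0368). A test of the second step against the first was made in the same fit, since a call in one step and not in the other does not show that they differ. The second log2 step was below the first in 13 chains and above it in 0, beside 5.96% and 2.06% of all genes (8.03% in either direction). At an unadjusted p under 0.05, 1 chain was above, and DESeq2 called Col20a1 above, beside 537 of 14940 genes.

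The 13 chains whose second log2 step was called below the first were Col1a1, Col1a2, Col5a3, Col11a1, Col24a1, Col4a1, Col4a2, Col6a1, Col6a2, Col6a3, Col15a1, Col16a1 and Col8a2, thus 5 fibrillar, 2 type IV and all 3 main type VI chains among them. Col24a1 and Col8a2 had steps of opposite sign, with second steps of -0.75 and -0.35 against first steps of 0.30 and 1.07, though the second was called only for Col24a1 and the first only for Col8a2. The call of the difference ended without any 1 of the day 3 libraries and without day 7 replicate 1 or 2 for Col1a1 (highest adjusted p 0.0969). For Col24a1 it ended without any 1 of the day 3 or day 7 libraries and without day 10 replicate 3 (highest 0.149), and for Col16a1 without day 7 replicate 2 (0.0564). Col3a1 was not one of the 13, with a second step of 0.60 against a first of 0.66 (difference -0.06, adjusted p = 0.907). Nor was Col18a1, with 1.05 against 1.30 (adjusted p = 0.651). For Col11a1 the steps were 0.11 and 1.77 (difference -1.66, standard error 0.153, adjusted p = 3.38e-04). For Col15a1 they were 0.93 and 4.02 (difference -3.09, adjusted p = 0.00145). The first step spans 4 days and the second 3, and as a change per day 9 of the chains were called below (Col1a2, Col4a1, Col4a2, Col5a3, Col6a1, Col6a3, Col8a2, Col11a1 and Col15a1) and 0 above, beside 3.39% and 0.823% of all genes.

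**Figure D3:**
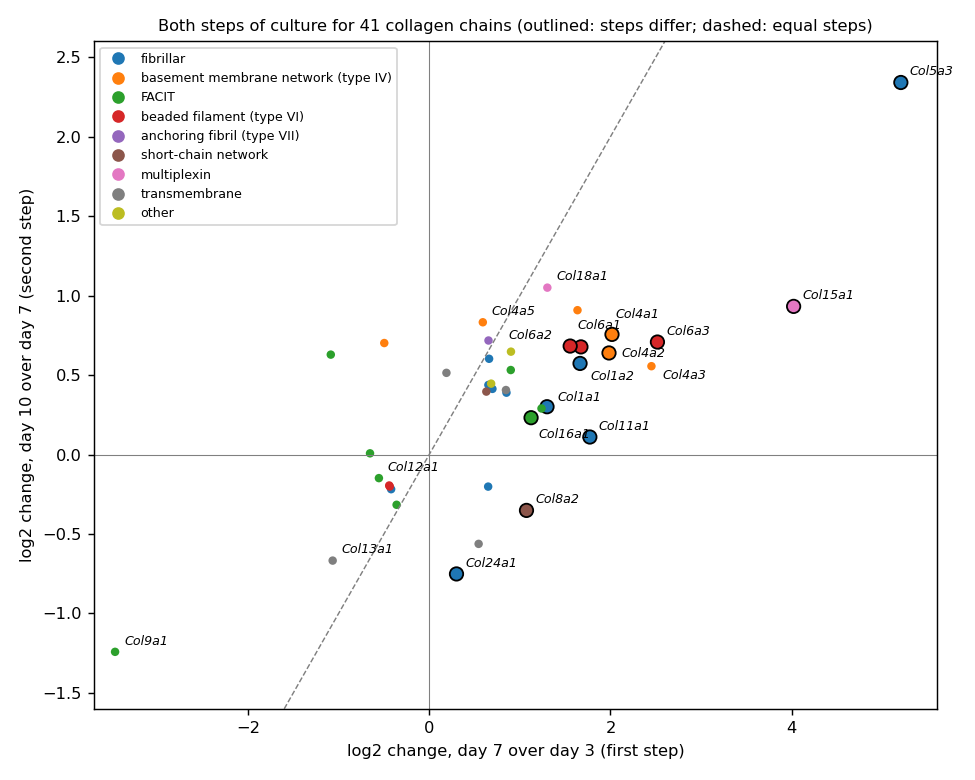
Log2 change of the second step (day 10 over day 7) against that of the first step (day 7 over day 3) for the 41 tested collagen chain genes, coloured by class; large outlined points are the 13 whose steps differed (adjusted p under 0.05), and the dashed line marks equal steps. All outlined points lie below the line, with Col5a3 and Col15a1 farthest to the right.

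The make-up of the collagen transcripts differed between days. Of all collagen counts, fibrillar chains held 70.7 ± 1.19% on day 3, 58.2 ± 3.04% on day 7 and 54.9 ± 2.03% on day 10. Type IV chains held 8.87 ± 0.542% on day 3, 15.0 ± 1.27% on day 7 and 16.5 ± 0.3% on day 10, and type VI chains 11.6 ± 0.492% on day 3, 18.7 ± 1.05% on day 7 and 20.3 ± 1.17% on day 10. The fibrillar share was lower and the type IV and type VI shares were higher in every library of day 7 and day 10 than in any of day 3. Multiplexins held 1.07 ± 0.107% on day 3, 3.18 ± 0.466% on day 7 and 4.17 ± 0.651% on day 10. FACIT chains held 3.87 ± 0.108% on day 3, 2.45 ± 0.235% on day 7 and 2.03 ± 0.47% on day 10, although their summed level was 968 ± 21.5 CPM on day 3, 1456 ± 164 CPM on day 7 and 1796 ± 428 CPM on day 10. Their share was thus smaller on day 10 while their sum was not. Within the fibrillar class, Col3a1 alone held 32.9 ± 1.62% on day 3, 21.9 ± 1.64% on day 7 and 22.4 ± 1.53% on day 10. These shares were not tested.

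**Figure D4:**
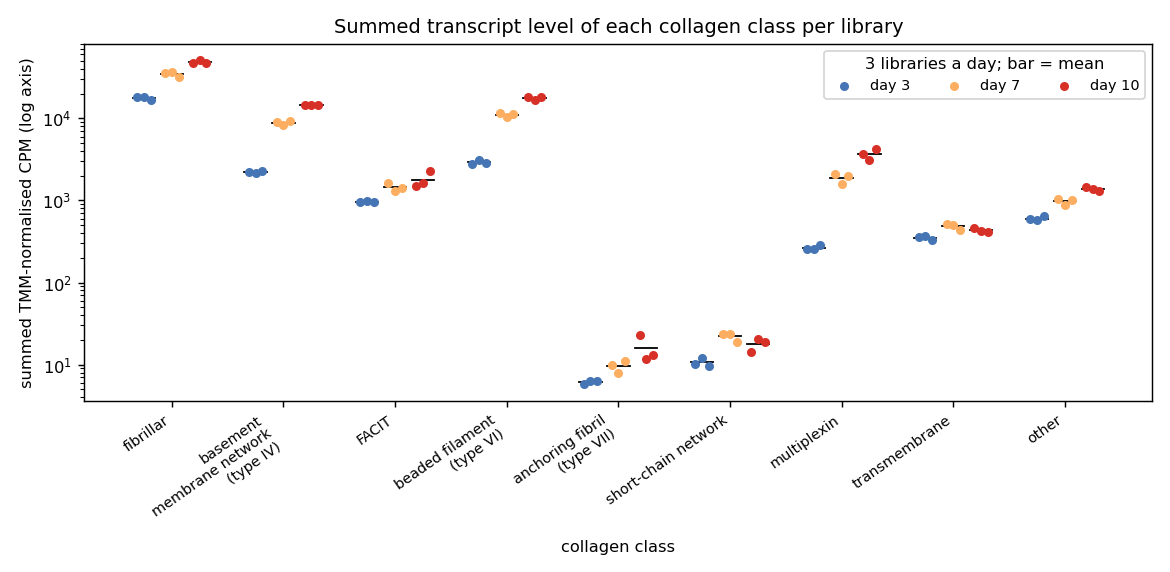
Summed TMM-normalised CPM (log axis) of each collagen class in every library of day 3, day 7 and day 10; points are libraries and bars are means of 3. Type IV sums averaged 14532 CPM on day 10 and 2217 CPM on day 3, while the transmembrane chains summed to 435 CPM on day 10 and 350.0 CPM on day 3.

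Levels of different chains were compared per kb of exon. Col3a1 and Col1a1 led on every day, at 3557 and 1973 CPM per kb on day 10 and 1482 and 651 CPM per kb on day 3. Col4a1 was in position 7 on day 3, 4 on day 7 and 3 on day 10, while Col5a1 was in positions 3, 8 and 9. On day 3, Col6a1, Col6a2 and Col4a1 lay at 207, 202 and 202 CPM per kb, closer than their SDs, so that their order is not distinguished. On day 10, Col4a1 and Col1a2, at 1379.8 and 1253 CPM per kb, differed by about as much as the SD of Col1a2, 122. Col15a1 reached position 10 on day 10, at 459 CPM per kb.

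Chains of 1 protein were then set against each other within each library. Type I collagen usually holds a pair of alpha 1 chains for each alpha 2 chain. The ratio of Col1a1 to Col1a2 per kb was 2.66, 2.40 and 2.29 on day 3, 1.94, 1.95 and 1.80 on day 7 and 1.81, 1.60 and 1.33 on day 10. All libraries of day 7 and day 10 were below those of day 3, while day 10 replicate 1 overlapped with day 7. Type IV collagen of the common network likewise holds a pair of Col4a1 chains for each Col4a2 chain. The ratio of Col4a1 to Col4a2 was 1.45, 1.48 and 1.54 on day 3, 1.46, 1.503 and 1.61 on day 7 and 1.66, 1.69 and 1.62 on day 10. Day 10 was above day 3 in every library by a small margin, and the day 10 mean was 1.65 ± 0.0358 against 1.49 ± 0.0507 on day 3 (SD, n = 3).

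Type VI filaments use 1 chain of each kind. The ratio of Col6a2 to Col6a1 was 0.965, 0.958 and 1.00 on day 3, 0.909, 0.864 and 0.923 on day 7 and 0.944, 0.872 and 0.895 on day 10. Day 10 was below day 3 in every library, by a small margin, while Col6a3 started lower. The ratio of Col6a3 to Col6a1 was 0.368, 0.403 and 0.341 on day 3, 0.65, 0.613 and 0.741 on day 7 and 0.857, 0.569 and 0.638 on day 10, so Col6a3 was nearer to its partners on day 7 and day 10 than on day 3. With coding length in place of exon length, the mean ratio of Col6a2 to Col6a1 was 1.42, 1.30 and 1.31 on days 3, 7 and 10, above 1 and not below it. The size of each ratio thus rests on the length used, but the change between days does not. Across proteins, the mean ratio of Col4a1 to Col1a1 was 0.312 on day 3, 0.519 on day 7 and 0.706 on day 10. Ratios were not tested.

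**Figure D5:**
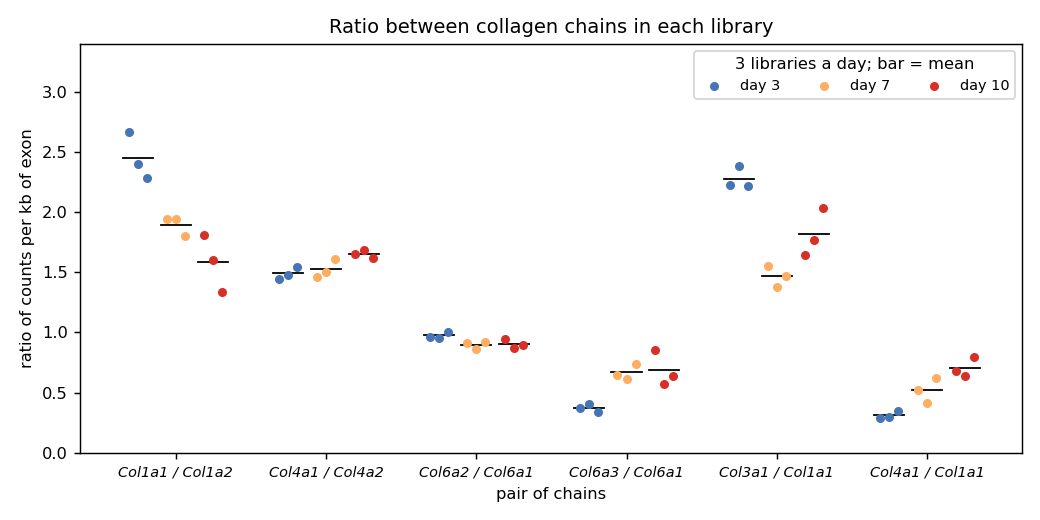
Ratio of counts per kb of exon between pairs of collagen chain genes in every library of day 3, day 7 and day 10; points are libraries and bars are means of 3. The ratio of Col1a1 to Col1a2 averaged 1.58 on day 10 and 2.45 on day 3, and that of Col6a3 to Col6a1 0.688 on day 10 and 0.371 on day 3.

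Genes that make, process, bind and break down collagen were read against the 29.5% of all genes called higher and 27.2% called lower on day 10 than on day 3. Of 20 genes for folding and modification, 16 were higher and 0 lower on day 10 than on day 3 by edgeR (0 lower at an unadjusted p under 0.05, and 0 by DESeq2), with a median log2 change of 0.70. P3h2, a prolyl 3-hydroxylase of basement membrane collagen, had 78.5 ± 8.02 CPM on day 10 against 25.2 ± 0.56 CPM on day 3 (log2 change 1.64, standard error 0.0904, adjusted p = 6.47e-07). Plod1, a lysyl hydroxylase, had 346 ± 97.2 CPM on day 10 against 138 ± 10.4 CPM on day 3, and the partners Crtap and P3h1, which hydroxylate prolines of fibrillar chains together, each rose by 1.16. Serpinh1, the collagen chaperone HSP47, had 2272 ± 352 CPM on day 10 against 1374 ± 61.0 CPM on day 3 (log2 change 0.73, standard error 0.12, adjusted p = 5.81e-04). Of 8 genes for propeptide cleavage, 7 rose and Tll1 fell, with a median of 1.47. The procollagen N-proteinases Adamts14 and Adamts2 had 32.3 ± 10.3 CPM on day 10 against 4.57 ± 0.767 CPM on day 3, and 236 ± 39.5 CPM on day 10 against 51.7 ± 5.57 CPM on day 3. Pcolce, an enhancer of C-propeptide cleavage, had 1357 ± 133 CPM on day 10 against 404 ± 14.8 CPM on day 3 (log2 change 1.75, standard error 0.0916, adjusted p = 4.83e-07), and Tll2 rose by 1.19 (adjusted p = 0.00246).

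Of 7 crosslinking genes, 5 rose and 2 were not called by edgeR, with a median of 1.17. DESeq2 called 6 higher, and by edgeR 6 were higher at an unadjusted p under 0.05. Loxl1, a lysyl oxidase, had 289 ± 99.3 CPM on day 10 against 24.1 ± 1.21 CPM on day 3 (log2 change 3.58, standard error 0.24, adjusted p = 3.22e-06). Tgm2, a transglutaminase, rose by 2.79, Lox by 1.83 and Loxl3 by 1.17. Pxdn, which crosslinks type IV collagen, had 888 ± 136 CPM on day 10 against 889 ± 12.8 CPM on day 3, and was not called (adjusted p = 0.991) while Col4a1 and Col4a2 rose. Of 10 receptor genes, 8 were tested, 4 rose and 1 fell, with a median of 0.32. The integrin chains Itga10 and Itga1 rose by 1.76 and 1.40, and Ddr2, a receptor of fibrillar collagen, by 0.61, while Ddr1 fell by 0.60. Of 8 genes for breakdown and uptake, 6 were tested and 5 rose, with a median of 1.15. Ctsk, a collagen-degrading cathepsin, had 51.0 ± 8.53 CPM on day 10 against 6.40 ± 1.11 CPM on day 3 (log2 change 2.99, standard error 0.151, adjusted p = 3.94e-07), Fap rose by 2.65, Mrc2, a collagen uptake receptor, by 1.16, and Mmp2 by 1.15. Of the other cells followed, 7 erythroid markers summed to 1050.0 to 1254 CPM on day 3, 4.47 to 6.21 CPM on day 7 and 0.176 to 0.44 CPM on day 10, and 5 mesothelial ones to 68.9 to 89.8 CPM on day 3, 37.5 to 40.7 CPM on day 7 and 17.9 to 28.6 CPM on day 10. The part of these cells in the collagen values was not tested.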

How the data were processed

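The deposited file is a matrix of raw whole-number counts under Entrez gene IDs; per the submitters' processing notes they were made with featureCounts against mm10. The aligner, the annotation and any use of strand: not given in the sources used here. IDs were named from RefSeq (25275 of 27179), and lengths are exon unions of GENCODE M21, all for the same assembly as the promoter windows of RefSeq. Replicates of a day differed by more than counting noise (chi-square per degree of freedom 8.05 to 127).

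Genes passing filterByExpr (14940) were scaled by TMM and tested with edgeR 4.0.16 in R 4.3.3 (robust quasi-likelihood F test over all 9 libraries, biological coefficient of variation 0.146), with Benjamini-Hochberg adjustment over all of them and a threshold of 0.05. The fit was tested on simulated data. Standard errors were derived from each log2 change and its F. CPM are TMM-normalised. Alternatives were other scalings, filters, DESeq2 1.42.0, a replicate term, days and libraries left out; those on coding length and change per day were chosen after seeing the data.

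Named with the value in every library are Col1a1, Col1a2, Col3a1, Col4a1 and Col4a2, and for each pair of days the 8 largest rises and falls among called chains of at least 10 CPM in the higher day; of each pathway list, up to 4 called genes with the largest change. Serpinh1, Pxdn and other chains were added for their role or after their values were seen. Members and lists were chosen with earlier results of these data known. The result of 1 marker list is not reported here.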

Additional observations from a re-analysis of the deposited data

How the results depend on the processing

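Leaving out 1 library at a time gave 25 to 28 chains higher and 3 to 6 lower between day 10 and day 3, 21 to 28 higher and 2 to 4 lower between day 7 and day 3, 8 to 13 higher and 1 to 3 lower between day 10 and day 7, 28 to 33 called among the 3 days (33 with all libraries), and 10 to 15 with the second step below the first. Of the 15174 to 15265 genes then tested, 3817 to 4387 were higher and 3511 to 4072 lower between day 10 and day 3. Between day 7 and day 3 they were 2637 to 3765 and 2141 to 3385. Between day 10 and day 7 they were 144 to 756 and 160 to 792. The second step was below the first in 438 to 1296 genes. Without both day 3 replicate 2 and day 10 replicate 3, 2 chains were lower on day 7 than on day 3 and 1 was lower on day 10 than on day 7. Of 15087 genes in that fit, 2763 and 545 were lower in these comparisons. Fitting only the 2 days compared gave 6 chains higher and 0 lower on day 10 than on day 7, beside 1.22% and 0.778% of all genes. Fewer libraries then estimate the spread. DESeq2 called 1 chain with the second step above the first, beside 537 of 14940 genes. By edgeR it was 0 chains, beside 308 genes. The cause was not tested. With collagen counts left out of the total, the collagen share was 6.33% on day 7 and 9.33% on day 10, by construction. No called chain reversed in sign under any alternative run, 41 values of named chains were no longer called, 155 values of counts and shares moved little and 12 moved further. The labels do not say whether replicate numbers pair the libraries, and correlations of deviations from the day mean do not settle it. These were -0.0694 to 0.433 in 9 same-numbered pairs, with 5 over 0.1. In pairs with different numbers they were -0.356 to 0.221. With a replicate block, 28 chains were higher and 5 lower between day 10 and day 3, 26 and 4 between day 7 and day 3, and 12 and 3 between day 10 and day 7. Of 14940 genes in that fit, 4412 were higher and 4153 lower between day 10 and day 3. They were 3425 and 2894 between day 7 and day 3, and 723 and 651 between day 10 and day 7. Between day 10 and day 3 the block added Col6a6 as lower (adjusted p = 0.0286), the 1 type VI chain called so, and Col11a2 and Col17a1 as higher. Coding length from RefSeq proteins was not run. Chains at or under the limit of a count of 0 cannot be followed at this depth.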

Other observations

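The libraries of day 10 differed in single chains. Day 10 replicate 3 had the highest level of its day in Col14a1 (1176 CPM, against 487 and 656 CPM), Col28a1 (375 CPM, against 147 and 148 CPM) and Col15a1 (3556 CPM, against 2552 and 2188 CPM). It had the lowest in Col18a1 and Col25a1. Day 10 replicate 1 had the highest in Col7a1 (23.2 CPM, against 11.6 and 13.1 CPM) and Col5a3 (879 CPM, against 548 and 649.5 CPM), so replicate 3 was not alone in this. Day 10 replicate 3 had the lowest cell division sum of its day, and the sums of the other days were 2133 to 2178 CPM on day 3 and 1195 to 1652 CPM on day 7. Whether these go together was not tested.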
